A study of Mus musculus with 14 samples.

Results

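Nr5a2, Klf4, Klf5, Klf17, Tfap2c, Gabpa, Nfya, Rarg, Yap1 and Tead4 encode transcription factors, or in the case of Yap1 a co-activator, that have been proposed to drive activation of the genome in the mouse embryo. They were taken by gene symbol, and these 10 genes of the 56923 in the count table were followed in all 14 RNA-seq libraries. The libraries were made from 2-cell embryos of ICR mice and fell into 7 conditions with 2 libraries each, and each library held a pool of 5 embryos. Early 2-cell embryos were collected 30 h and late 2-cell embryos 54 h after the hCG injection that triggers ovulation. In the G&N groups, culture from 24 h post-hCG contained 5 µM Gne140, an inhibitor of lactate dehydrogenase, 50 µM NMN, a precursor of NAD, and 10 mM lactate, and in the G&N-L groups the same agents were given with 0 mM lactate. Embryos of the late G&N-L + Lac-CoA group were lactate-deprived in the same way and had been injected with 1 mM lactyl-CoA, the donor of the lactyl group in histone lactylation. H3K18R and WT late 2-cell embryos had been injected 14 h post-hCG with 200 ng/µL of mRNA for mutant or wild-type histone H3.1, H3.2 and H3.3, and no Gne140 or NMN is named for them. Groups follow the sample titles. The treatment fields of the early libraries name Gne140 and NMN for G&N-L and Gne140 alone for G&N, without lactate, and the count table calls the H3K18R columns K18A.

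In the mouse, transcription of the new genome starts in a minor wave in the zygote and early 2-cell embryo and in a major wave in the late 2-cell embryo, while the RNA stored by the oocyte is degraded. Transcription factors that act on this genome are either loaded into the egg as maternal RNA or protein, or are made anew from the embryo's own genes. Nr5a2 is an orphan nuclear receptor, Klf4, Klf5 and Klf17 are zinc finger factors that bind CACCC-type sites, Tfap2c is an AP-2 factor, Gabpa is the ETS subunit of GABP, Nfya is the subunit of the NF-Y trimer that contacts CCAAT, Rarg is a retinoic acid receptor, and Yap1 is the Hippo pathway co-activator that acts through TEAD factors such as Tead4. RNA-seq of a pool cannot tell fewer cells that use a gene from less RNA per cell.

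The sequences before the starts of Nr5a2, Klf5, Klf17 and Tfap2c are shown as examples. Their windows hold matches to motifs of these factor families and lie outside the exons of protein-coding genes. Each is the 250 bases before the start of the canonical transcript, on the coding strand, 5′ to 3′, from GRCm39 (mm39) with GENCODE vM39, and capitals mark matches to the motifs searched. These windows are chr1:136877301-136877550 on the minus strand for Nr5a2, chr14:99535836-99536085 on the plus strand for Klf5, chr4:117622846-117623095 on the minus strand for Klf17 and chr2:172391071-172391320 on the plus strand for Tfap2c. That of Nr5a2 lies in an exon of the long noncoding RNA Gm70689, and the other windows shown touch no annotated exon. The window of Yap1, not shown, holds such matches too, and exons of Gm45494 cover 97 of its 250 bases.
Nr5a2: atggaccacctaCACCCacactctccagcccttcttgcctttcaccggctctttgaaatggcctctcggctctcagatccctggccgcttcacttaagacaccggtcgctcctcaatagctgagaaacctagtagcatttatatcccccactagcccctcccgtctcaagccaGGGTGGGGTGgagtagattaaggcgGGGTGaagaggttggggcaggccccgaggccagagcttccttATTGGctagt
Klf5: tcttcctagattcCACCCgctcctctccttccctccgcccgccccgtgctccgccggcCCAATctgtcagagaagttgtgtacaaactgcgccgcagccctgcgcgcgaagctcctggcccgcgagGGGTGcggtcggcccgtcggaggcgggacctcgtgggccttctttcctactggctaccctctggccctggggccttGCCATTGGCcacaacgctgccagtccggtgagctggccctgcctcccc
Klf17: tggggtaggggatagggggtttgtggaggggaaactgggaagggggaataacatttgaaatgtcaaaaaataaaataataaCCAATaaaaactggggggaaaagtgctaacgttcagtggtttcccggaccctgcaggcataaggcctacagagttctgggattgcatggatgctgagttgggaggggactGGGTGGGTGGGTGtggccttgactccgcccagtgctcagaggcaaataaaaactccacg
Tfap2c: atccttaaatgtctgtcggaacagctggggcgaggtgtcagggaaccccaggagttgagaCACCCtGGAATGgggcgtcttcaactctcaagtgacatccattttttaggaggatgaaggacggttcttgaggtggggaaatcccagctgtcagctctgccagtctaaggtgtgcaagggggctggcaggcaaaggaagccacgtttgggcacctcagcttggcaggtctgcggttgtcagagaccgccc

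Capitals stand for CACCC (KLF factors), CCAAT (NF-Y), GCCNNNGGC (AP-2, a palindrome counted once) and GGAATG (TEAD), each searched on both strands, so that GGGTG and ATTGG are the same sites read on the other strand. Nr5a2 held 4 KLF matches and 1 NF-Y match, Klf5 held 2 KLF, 2 NF-Y and 1 AP-2 match, Klf17 held 3 KLF matches and 1 NF-Y match, and Tfap2c held 1 KLF and 1 TEAD match. In Klf5 the AP-2 match overlapped an NF-Y match, ATTGG. KLF matches occurred before 7 of the 10 genes and before 53% of 21631 promoters, AP-2 matches before 4 of 10 and 13.3%, NF-Y matches before 3 of 10 and 36.5%, and TEAD matches before 2 of 10 and 12.1%. Neither the NR5A2 motif AAGGTCA, present in 3.88% of promoters, nor the retinoid DR5 element, present in 0.00462%, occurred before any of the 10 genes. These are matches of letters, and binding was not measured in these libraries.

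Gabpa was the gene with matches to its own ETS motif, CCGGAAG, which 6.87% of promoters hold. There were 2, both read as CTTCCGG on the plus strand of mm39, at 185 and 13 bases before the start. They lie within chr16:84631739-84631761 and chr16:84631911-84631931 and are shown with up to 8 bases on each side, in a window that exons of Gabpa and of the opposite gene Atp5pf overlap.
Gabpa site at 185 bases: ccgttctaCTTCCGGccctggct
Gabpa site at 13 bases: ggtaagtgCTTCCGGgtccct

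Library totals ran from 20350427 to 61275465 counts, so that 3 counts, the limit that a count of 0 allows, correspond to 0.0589 to 0.144 CPM, the unit of counts relative to the library total, scaled here by the TMM method over all libraries. These limits cover counting error only, since reads amplified by PCR are not independent molecules. Oocyte and maternal markers, 18 genes, summed to 53432 to 70812 CPM in early and 20565 to 34594 CPM in late libraries. Late 2-cell and 4-cell activation markers, 12 genes, summed to 310 to 472 CPM in early libraries. Summed markers of cumulus and granulosa cells, 15 genes, stayed between 8.58 and 38.8 CPM in all libraries. The libraries labelled H3K18R held 43643 and 83390 counts of H3c1 and those labelled WT 4 and 3, so that the WT libraries do not show a raised level of this H3 gene, although wild-type H3 mRNA is described for them.

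Per kilobase of exon, Klf17 was the most abundant of the 10 in early G&N embryos (176 ± 98.7 CPM per kb, mean ± SD, n = 2), followed by Nfya (16.1 ± 7.07 CPM per kb), Yap1 (5.94 ± 1.14 CPM per kb), Nr5a2 (2.19 ± 0.0181 CPM per kb) and Tfap2c (1.75 ± 0.421 CPM per kb). The other five were at 0.284 CPM per kb or less at that stage. In late G&N embryos Klf17 (81.2 ± 7.10 CPM per kb) and Gabpa (45.1 ± 17.1 CPM per kb) led, Yap1, Klf5, Klf4, Tfap2c, Nr5a2 and Nfya lay between 12.2 and 4.27 CPM per kb, and Rarg (0.752 ± 0.227) and Tead4 (0.559 ± 0.204) were lowest. In WT embryos the order at the top was the other way round, with Gabpa at 102 ± 2.24 and Klf17 at 44.5 ± 0.558 CPM per kb.

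**Figure D1:**
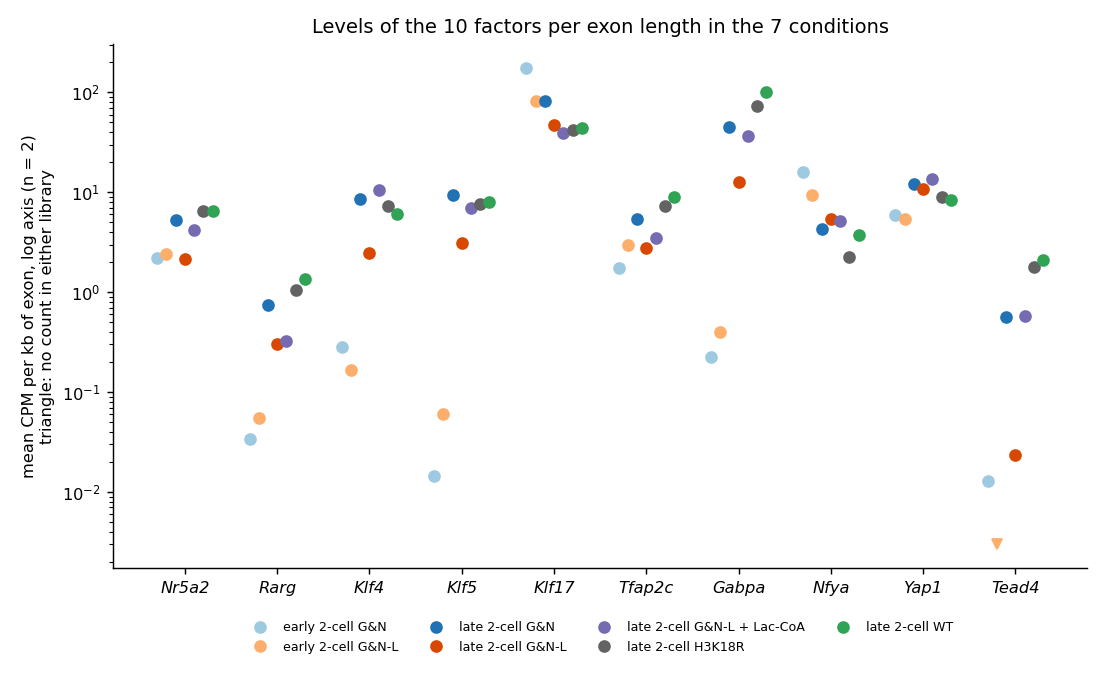
Mean level of each of the 10 factors in the 7 conditions, in CPM per kb of exon on a log axis (n = 2 libraries a condition; the triangle marks Tead4 without a count in early G&N-L embryos). Klf17 had the highest level of the 10 in both early conditions, and Gabpa moved from 0.224 CPM per kb in early G&N to 102 CPM per kb in WT embryos.

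Whether these factors are already present at the early 2-cell stage or appear with major genome activation was read from late against early G&N embryos. Of the 10, 8 were higher and 2 lower in late embryos, and 4 changed at an adjusted p below 0.05 in edgeR's quasi-likelihood test with Benjamini-Hochberg adjustment over 19443 genes, of which 13.7% were called. Klf5, Gabpa and Klf4 rose and Nfya fell. All 10 genes had groups that did not overlap, as had 64.6% of genes tested, and 9 of 10 met the criterion of an unadjusted p below 0.05 and a log2 fold change beyond 0.5, against 34.4%. Their median log2 fold change was 3.01, beside 0.08 for all genes. With DESeq2 in place of edgeR, all 10 had an adjusted p below 0.05, as had 5959 of the 19443 genes.

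The Kruppel-like factor Klf5, which acts in the inner cell mass and trophectoderm of the blastocyst, was at 0.0392 and 0.114 CPM (2 and 5 counts) in early G&N and at 46.3 and 52.4 CPM in late G&N libraries. From next to nothing it rose 599-fold, by 9.23 ± 0.717 on the log2 scale (± SE, adjusted p = 0.00607, edgeR), and this fold rests on the few early counts. Klf4, a pluripotency factor of the same family, was at 1.49 and 0.296 CPM early and at 34.8 and 19.8 CPM late, and rose by 4.92 ± 0.905 (adjusted p = 0.0282, edgeR). Without late G&N replicate 1 or 2 its adjusted p was 0.114 or 0.0792 in edgeR, while Klf5 stayed below 0.05 in all 4 fits that left out a library. Klf17 ran the other way. It was at 591 and 256 CPM in early and at 207 and 183 CPM in late G&N libraries, a log2 fold change of -1.15 ± 0.380 that did not pass (adjusted p = 0.0919, edgeR) and that was -0.45 without early G&N replicate 1.

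Gabpa, a regulator of nuclear-encoded mitochondrial and housekeeping genes, rose 186-fold, from 1.08 and 2.68 CPM in early G&N to 278 and 481 CPM in late G&N libraries (log2 fold change 7.54 ± 0.720, adjusted p = 0.00731, edgeR). Nfya fell. It was at 81.5 and 155 CPM in early and 29.1 and 33.8 CPM in late G&N libraries, 4.06-fold lower (log2 fold change -2.02 ± 0.451, adjusted p = 0.0439, edgeR). The call of Nfya was lost without early G&N replicate 2 (adjusted p = 0.1003), late G&N replicate 1 (0.183) or late G&N replicate 2 (0.152) in edgeR, and Gabpa kept its call in all 4 such fits, with adjusted p values from 0.00213 to 0.0447. Nfya was also lost with the size factors of DESeq2 (0.0523) or with library totals (0.0552) in edgeR. Counting is not stated to have used strand, so reads of Gabpa and the opposite gene Atp5j (Atp5pf in the annotation), and of Nfya and the opposite gene Oard1, cannot be told apart where their exons overlap. Oard1 was at 115 to 193 CPM in early and 37.4 to 74.8 CPM in late libraries, with a log2 fold change of -1.75 ± 0.426 between the G&N stages (adjusted p = 0.0525, edgeR). Atp5j was at 5.39 to 14.9 CPM early and 17.7 to 103 CPM late, below Gabpa in every late library.

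The nuclear receptor Nr5a2, which binds as a monomer and is needed in early mouse development, was at 19.0 and 18.8 CPM in early and 44.2 and 47.0 CPM in late G&N libraries. It was 2.29-fold higher late, with tight replicates, and did not pass over all genes (log2 fold change 1.20 ± 0.333, adjusted p = 0.0668, edgeR). Rarg was barely measured early, with 16 and 0 counts in G&N, and reached 2.74 and 4.22 CPM late (log2 fold change 4.46 ± 1.95, adjusted p = 0.174, edgeR). Tfap2c, an AP-2 factor of trophectoderm and germ cells, was at 7.99 and 5.67 CPM early and 29.4 and 12.6 CPM late (1.57 ± 0.588, adjusted p = 0.126). Yap1, present from the egg on, was at 48.1 and 63.2 CPM early and 128 and 101 CPM late (0.95 ± 0.334, adjusted p = 0.109). Tead4, whose product specifies trophectoderm, had 8 and 0 counts early and was at 2.52 and 4.27 CPM late (5.38 ± 1.90, adjusted p = 0.107).

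The change of stage was then read without lactate. Between early and late G&N-L embryos 9 of the 10 were tested. Tead4 did not pass the filter on low counts, with no count in either early library and 0 and 11 counts in the late ones. Of the 9, 2 had an adjusted p below 0.05 in edgeR, against 11.8% of 18604 genes. Gabpa rose 30.5-fold, from 5.24 and 1.45 to 107 and 107 CPM (log2 fold change 4.93 ± 0.628, adjusted p = 0.0145, edgeR), and Klf17 fell from 205 and 187 to 122 and 106 CPM (-0.84 ± 0.174, adjusted p = 0.0429, edgeR). Klf17 lost this call in each of the 4 fits without a library, with adjusted p values from 0.108 to 0.146, and with library totals (0.122) or in a fit of all 14 libraries (0.177), and Gabpa lost it without late G&N-L replicate 1 (0.0739) or replicate 2 (0.0587). Klf5 went from 2 and 13 counts to 7.67 and 24.9 CPM (5.65 ± 1.37, adjusted p = 0.0600, edgeR), and passed with no filter (adjusted p = 0.0108) or in a fit of all 14 libraries (0.00138) in edgeR, and with DESeq2 (adjusted p = 1.35e-05). The criterion was met by 4 of 9, against 32.2% of all genes, and the median of the 9 was 0.94 beside 0.15 for all genes.

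The stages overlapped without lactate for Nr5a2, Tfap2c and Nfya. Its 4 G&N-L libraries were at 23.3 and 18.3 CPM early and 17.2 and 19.6 CPM late, so that the groups overlapped (log2 fold change -0.23 ± 0.322, adjusted p = 0.708, edgeR), and the sign turned to 0.14 when libraries were scaled by their totals. Tfap2c also overlapped between the stages, at 12.5 and 10.3 CPM early and 18.5 and 2.82 CPM late (-0.15 ± 0.897), and Nfya did so at 93.5 and 46.0 CPM early and 21.3 and 57.6 CPM late (-0.87 ± 0.557). Scaling by library totals turned Tfap2c to 0.22 and moved the median of all genes from 0.08 to 0.46 with lactate and from 0.15 to 0.51 without, so changes between the stages are relative to these medians. The genes at the criterion then went from 3847 higher and 2844 lower to 4591 and 1932 with lactate, and from 3535 and 2456 to 4499 and 1678 without.

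**Figure D2:**
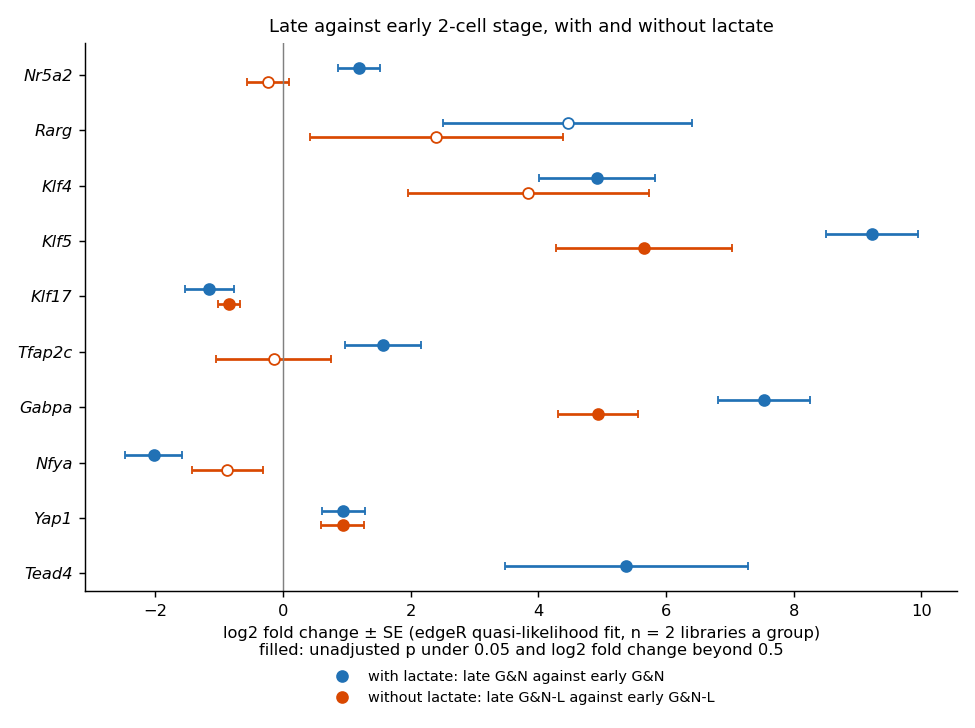
Log2 fold change of late against early 2-cell embryos (horizontal axis, points ± SE, n = 2 libraries a group) for each factor with lactate (G&N) and without (G&N-L), filled where the unadjusted p was below 0.05 and the change beyond 0.5. Klf5 lay at 9.23 with and 5.65 without lactate, Gabpa at 7.54 and 4.93, and Nr5a2 at 1.20 and -0.23, and Tead4 was not tested without lactate.

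To ask whether the difference made by lactate changed between the stages, an interaction term was fitted to the 8 libraries that had Gne140 and NMN without Lac-CoA. No gene of 22287 (0%) had an adjusted p below 0.05 in edgeR, where 7.55% had an unadjusted p below 0.05 and the same share met the criterion. Nr5a2, Gabpa and Klf5 were 3 of the 10 that met it, DESeq2 gave none of the 10 an adjusted p below 0.05, and Tead4, without a count in early G&N-L, did not meet it (adjusted p = 0.999992, edgeR, no standard error). The late effect of lactate removal was more negative than the early effect for Nr5a2, by a log2 difference of -1.47 ± 0.437 (adjusted p = 0.639, edgeR). For Gabpa the difference was -2.64 ± 0.852 (adjusted p = 0.639) and for Klf5 -3.59 ± 1.52 (adjusted p = 0.650). Leaving out early G&N-L replicate 1 took Gabpa to -1.53, outside the criterion, and leaving out early G&N-L replicate 2 took Klf5 to -0.99. Where no filter on low counts was set, Gabpa and Klf5 passed (adjusted p = 7.11e-06 and 0.0218, edgeR).

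Lactate removal at the late 2-cell stage went with lower levels of most of these factors. Late G&N-L libraries were below late G&N libraries without overlap for 7 of the 10 genes, against 24.9% of 19481 genes tested, and 5 genes met the criterion, all lower, against 7.63%. None of the 10, and none of all genes (0%), had an adjusted p below 0.05 in edgeR, where 12% of genes had an unadjusted p below 0.05. DESeq2 on the same genes gave adjusted p values of 3.30e-06 for Gabpa, 0.0265 for Nr5a2 and 0.0330 for Klf4. It put 916 of the 19481 genes below 0.05. The median log2 fold change of the 10 was -1.26, beside -0.02 for all genes.

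Gabpa was at 278 and 481 CPM with lactate and at 107 and 107 CPM without. Both lactate-deprived libraries lay at the same level, and the fitted fold was 3.41-fold lower without lactate (log2 fold change -1.77 ± 0.288, adjusted p = 0.311, edgeR). Nr5a2 was at 44.2 and 47.0 CPM with lactate and 17.2 and 19.6 CPM without, beside 18.3 to 23.3 CPM in the early libraries. It was 2.39-fold lower (-1.26 ± 0.288, adjusted p = 0.316). Both genes met the criterion whichever library was left out, with log2 fold changes of -2.08 to -1.29 for Gabpa and -1.34 to -1.18 for Nr5a2.

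The 3 Kruppel-like factors were lower as well. Klf4 was at 34.8 and 19.8 CPM with lactate and 6.86 and 8.79 CPM without (-1.77 ± 0.473, adjusted p = 0.332, edgeR), and without late G&N replicate 1 the difference was -1.25, outside the criterion. Klf5 was at 46.3 and 52.4 CPM with and 7.67 and 24.9 CPM without lactate (-1.56 ± 0.574, adjusted p = 0.370, edgeR). It left the criterion without G&N-L replicate 1 (-0.96), G&N replicate 1 (-1.60) or G&N replicate 2 (-1.43). Klf17, at 207 and 183 CPM against 122 and 106 CPM, differed by -0.72 ± 0.219 (adjusted p = 0.333, edgeR). When G&N-L replicate 2 was left out it differed by -0.62, and by -0.59 when it was G&N replicate 1, both outside the criterion.

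Tead4 fell short of the criterion although its groups stood apart, with 92 and 186 counts with lactate and 0 and 11 counts without (log2 fold change -4.49 ± 1.98, adjusted p = 0.472, edgeR). Rarg was at 2.74 and 4.22 CPM with and 1.20 and 1.59 CPM without lactate (-1.26 ± 0.924, adjusted p = 0.742, edgeR). The groups of Tfap2c, Yap1 and Nfya overlapped. Tfap2c was split within G&N-L, at 18.5 and 2.82 CPM, and its difference of -0.93 ± 0.947 became -2.88, at the criterion, without G&N-L replicate 1. Yap1 was at 128 and 101 CPM with and 72.7 and 128 CPM without lactate (-0.15 ± 0.337), and turned to 0.19 or 0.08 without G&N-L replicate 1 or G&N replicate 1. Nfya, at 29.1 and 33.8 CPM with and 21.3 and 57.6 CPM without (0.37 ± 0.498), turned to -0.50 without G&N-L replicate 2.

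Injection of Lac-CoA into lactate-deprived embryos was compared with G&N-L alone, for which no injection is named. Lac-CoA and the injection itself therefore cannot be told apart here. Lac-CoA libraries were above G&N-L libraries without overlap for 5 of the 10 genes, against 24.8% of 19610 genes, and 3 met the criterion, all higher, against 6.89%. No gene of the 19610 (0%) had an adjusted p below 0.05 in edgeR, with 13.3% at an unadjusted p below 0.05. DESeq2 gave 2 of the 10, Gabpa (adjusted p = 5.53e-09) and Klf4 (adjusted p = 0.00354), and 1183 of the 19610 genes. This comparison shares the G&N-L libraries with the lactate comparison, so a G&N-L library far from its pair moves both in opposite directions.

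Gabpa was at 288 and 322 CPM with Lac-CoA and at 107 and 107 CPM without, 2.76-fold higher (log2 fold change 1.46 ± 0.177, adjusted p = 0.294, edgeR). Klf4 was at 23.8 and 42.5 CPM against 6.86 and 8.79 CPM, 4.09-fold higher (2.03 ± 0.446, adjusted p = 0.294). Nr5a2 was at 36.8 and 36.3 CPM against 17.2 and 19.6 CPM, 1.92-fold higher (0.94 ± 0.296, adjusted p = 0.308). In the 4 fits that each left out a library Nr5a2 stayed between 0.86 and 1.03 and left the criterion each time. Klf5 was at 31.1 and 42.3 CPM against 7.67 and 24.9 CPM (1.13 ± 0.604, adjusted p = 0.531, edgeR), and at 2.20, within the criterion, without G&N-L replicate 2, the higher of that pair. Tead4 had 167 and 140 counts against 0 and 11 (4.56 ± 2.03, adjusted p = 0.429).

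The remaining genes did not stand higher. Klf17 was at 92.6 and 96.8 CPM with Lac-CoA, below the 122 and 106 CPM of G&N-L (-0.32 ± 0.201, adjusted p = 0.606, edgeR). Rarg (0.08 ± 1.18), Tfap2c (0.30 ± 0.929), Nfya (-0.11 ± 0.499) and Yap1 (0.29 ± 0.335) overlapped between the groups. Nfya was 0.01 with scaling by library totals, and Tfap2c was 2.23, within the criterion, without G&N-L replicate 1.

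Against late G&N embryos, which had lactate and no injection, the Lac-CoA libraries met the criterion for 1 of the 10, Klf17, against 8.51% of 19613 genes, the same share as had an unadjusted p below 0.05. No gene (0%) had an adjusted p below 0.05 in edgeR, and DESeq2 gave 1 of the 10 and 471 of the 19613 genes. Klf17 was at 92.6 and 96.8 CPM against 207 and 183 CPM (-0.95 ± 0.228, adjusted p = 0.500 in edgeR and 0.0106 in DESeq2). Nr5a2 (-0.23 ± 0.278), Klf5 (-0.34 ± 0.305) and Rarg (-1.09 ± 0.982) were also lower without overlap, as were 22.2% of all genes, and Nfya was higher (0.36 ± 0.299). Gabpa (-0.21 ± 0.291), Klf4 (0.36 ± 0.471), Tead4 (0.16 ± 0.812), Tfap2c (-0.54 ± 0.593) and Yap1 (0.24 ± 0.285) overlapped.

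**Figure D3:**
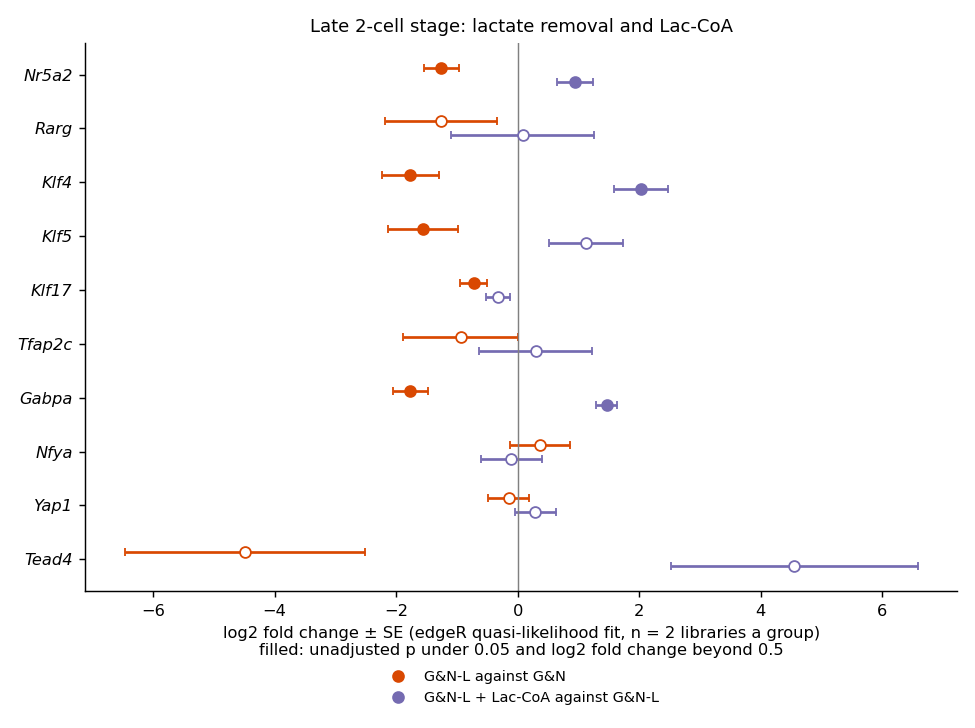
Log2 fold change (horizontal axis, points ± SE, n = 2 libraries a group) of each factor in late embryos for G&N-L against G&N, and for G&N-L + Lac-CoA against G&N-L, filled where the unadjusted p was below 0.05 and the change beyond 0.5. Gabpa lay at -1.77 and 1.46, Klf4 at -1.77 and 2.03 and Nr5a2 at -1.26 and 0.94, and both comparisons share the G&N-L libraries.

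At the early 2-cell stage lactate removal met the criterion for 1 of the 8 genes tested, against 4.5% of 17343 genes, and no gene (0%) had an adjusted p below 0.05 in edgeR, where 4.52% had an unadjusted p below 0.05, and DESeq2 called none of the 8. Klf17 was at 591 and 256 CPM with lactate and 205 and 187 CPM without (-0.95 ± 0.346, adjusted p = 0.9999, edgeR), and this rested on early G&N replicate 1, without which it was -0.36. Tfap2c was higher without overlap, at 12.5 and 10.3 CPM against 7.99 and 5.67 CPM (0.87 ± 0.418), while 32.7% of all genes had groups that did not overlap. Nr5a2 overlapped at this stage (23.3 and 18.3 against 19.0 and 18.8 CPM, 0.25 ± 0.313), and so did Yap1 (-0.05 ± 0.301), Nfya (-0.70 ± 0.470), Gabpa (0.86 ± 0.999), Klf4 (-0.53 ± 2.32) and Rarg (0.83 ± 2.73). Of these, Gabpa, Klf4 and Rarg had between 0 and 208 counts in these libraries. Klf5 and Tead4 were too low to be tested, and a change in Klf5 or Tead4 was not detectable at this depth.

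H3K18R embryos were set against WT embryos to ask about the lysine that carries the lactyl mark, with the limit that the libraries labelled WT show no raised H3c1. None of the 10 genes met the criterion, against 6.44% of 17704 genes, and none had an adjusted p below 0.05 in edgeR (0.00565% of all genes did) or in DESeq2. The groups stood apart for 3 of 10, against 38.9%. Klf4 was at 22.8 and 22.8 CPM against 21.5 and 16.7 CPM (0.26 ± 0.392), Nfya at 11.7 and 21.9 CPM against 26.002 and 29.1 CPM (-0.71 ± 0.460, adjusted p = 0.876, edgeR) and Rarg at 4.70 and 5.00 CPM against 6.83 and 5.71 CPM (-0.37 ± 0.658).

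The spread within H3K18R was wide for several genes. Gabpa was at 848 and 381 CPM in H3K18R and 868 and 842 CPM in WT libraries (-0.47 ± 0.422, adjusted p = 0.923, edgeR), and at -1.17 without H3K18R replicate 1, within the criterion. Nr5a2 was at 74.2 and 36.7 CPM against 58.8 and 53.5 CPM (-0.01 ± 0.422), on both sides of WT, and its sign turned under other scalings. Tfap2c was at 39.0 and 17.3 CPM against 36.8 and 33.6 CPM (-0.32 ± 0.485). Nfya was lower by more without H3K18R replicate 2 (-1.23, adjusted p = 0.904, edgeR), where it met the criterion. Klf5 (-0.07 ± 0.400), Klf17 (-0.07 ± 0.266), Tead4 (-0.25 ± 0.493) and Yap1 (0.09 ± 0.312) overlapped. Gabpa, Nr5a2, Tfap2c, Klf5 and Yap1 were higher in H3K18R replicate 1 than in replicate 2. In the same order of replicates, Tead4 (9.87 and 11.7 CPM), Rarg (4.70 and 5.00), Klf17 (96.0 and 108) and Nfya (11.7 and 21.9) were lower. Klf4 was level (22.8 and 22.8 CPM). The late activation markers summed to 3713 CPM in replicate 1, 2191 CPM in replicate 2 and 4114 to 4514 CPM in WT. Whether the levels of these genes follow the markers was not tested.

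**Figure D4:**
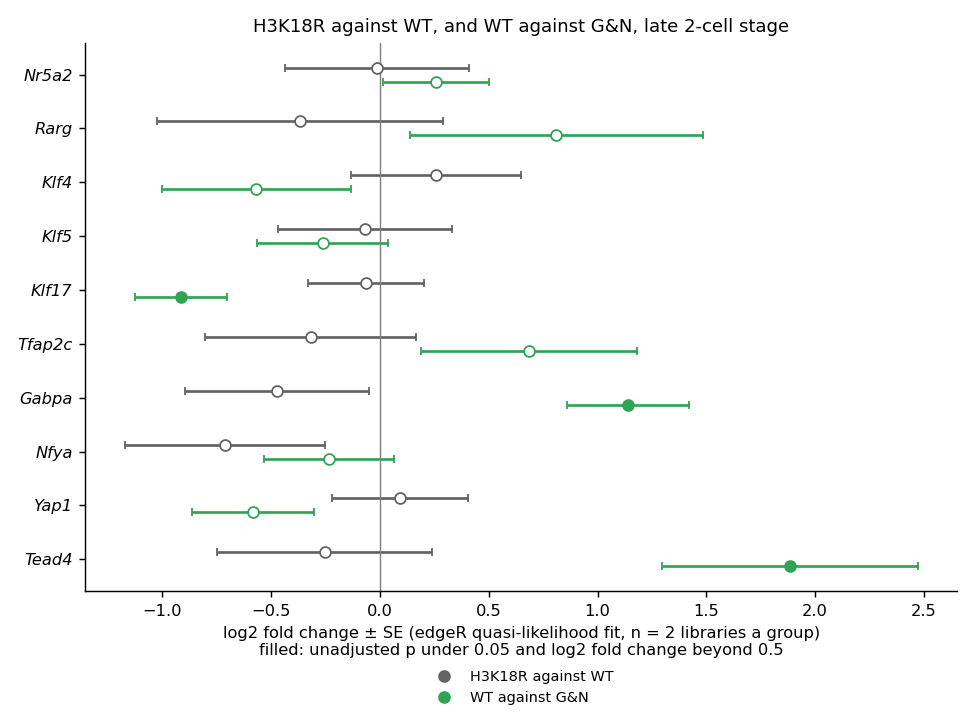
Log2 fold change (horizontal axis, points ± SE, n = 2 libraries a group) of each of the 10 factors in late 2-cell embryos. H3K18R is set against WT, and WT against G&N, with points filled where the criterion was met. For H3K18R against WT the values lay between -0.71 for Nfya and 0.26 for Klf4, and none met the criterion. For WT against G&N, Gabpa and Tead4 (higher) and Klf17 (lower) met it.

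Embryos labelled WT and late G&N embryos differ in Gne140 and NMN and, by description, in the injection, which cannot be told apart here. Of the 10 genes, 3 met the criterion, against 28% of 18986 genes, and none had an adjusted p below 0.05 in edgeR, against 4.62%. DESeq2 gave an adjusted p below 0.05 for 3, the same genes, and for 4104 of the 18986 genes. Gabpa was higher in WT, at 868 and 842 CPM against 278 and 481 CPM (1.14 ± 0.280, adjusted p = 0.0786, edgeR). Tead4 was at 14.96 and 10.8 CPM against 2.52 and 4.27 CPM (1.88 ± 0.587, adjusted p = 0.112). Klf17 was lower, at 106 and 108 CPM against 207 and 183 CPM (-0.91 ± 0.211, adjusted p = 0.0710). The median of all genes was -0.16 in this comparison, and 60.6% of all genes had groups that did not overlap. Tead4 left the criterion without G&N replicate 1 (1.58) or WT replicate 1 (1.63).

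Over the 7 conditions, 5 of the 10 genes, Klf4, Klf5, Gabpa, Rarg and Yap1, had every late library above every early library. The share of all genes that did so, or that had gaps like those given below, was not determined. Between the G&N stages alone, 64.6% of genes tested had groups that did not overlap. Yap1 spanned the smallest distance, with 42.0 to 63.2 CPM early and 66.5 to 147 CPM late, and Gabpa went from 1.08 to 5.24 CPM early to 107 to 868 CPM late. By mean level, Gabpa was ordered WT, H3K18R, late G&N, Lac-CoA, late G&N-L, early G&N-L and early G&N, with gaps between Lac-CoA and late G&N-L and between late G&N-L and early G&N-L, and overlap between all other neighbours. Nr5a2 had the order WT, H3K18R, late G&N, Lac-CoA, early G&N-L, early G&N and late G&N-L. Lac-CoA had a gap from each of its neighbours by mean, late G&N and early G&N-L. H3K18R nevertheless overlapped Lac-CoA, with replicate 2 at 36.7 CPM beside 36.8 and 36.3 CPM with Lac-CoA. The late lactate-deprived libraries of Nr5a2 overlapped the early ones.

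Klf4 and Klf5 had late G&N-L alone between the other late conditions and the early conditions, with a gap on each side. For Klf5 the order was late G&N, WT, H3K18R, Lac-CoA, late G&N-L and the early groups. For Klf4 it was Lac-CoA, late G&N, H3K18R, WT, late G&N-L and the early groups. Between the Klf4 neighbours H3K18R and WT there was a further gap. Late G&N spanned it, with replicate 2 at 19.8 CPM, inside the WT range of 16.7 to 21.5 CPM. Klf17 was ordered from early G&N at the top through early G&N-L and late G&N, which overlapped, to late G&N-L, WT, H3K18R and Lac-CoA, which overlapped from neighbour to neighbour. Nfya likewise was highest in early G&N and lowest in H3K18R. Its neighbours by mean overlapped from early G&N down to Lac-CoA and had gaps below. Late G&N-L, at 21.3 and 57.6 CPM, spanned these gaps and overlapped H3K18R, at 11.7 and 21.9 CPM. The Nfya gap between late G&N and WT was minute, with 29.0895 CPM in the lower G&N and 29.0815 CPM in the higher WT library. Tead4 fell into WT and H3K18R, then Lac-CoA and late G&N, then late G&N-L with both early groups, with gaps between these 3 sets. Rarg had gaps between all neighbours except Lac-CoA with late G&N-L and the early pair. Neighbours of Yap1 overlapped except between WT and the early groups, and all neighbours of Tfap2c overlapped.

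**Figure D5:**
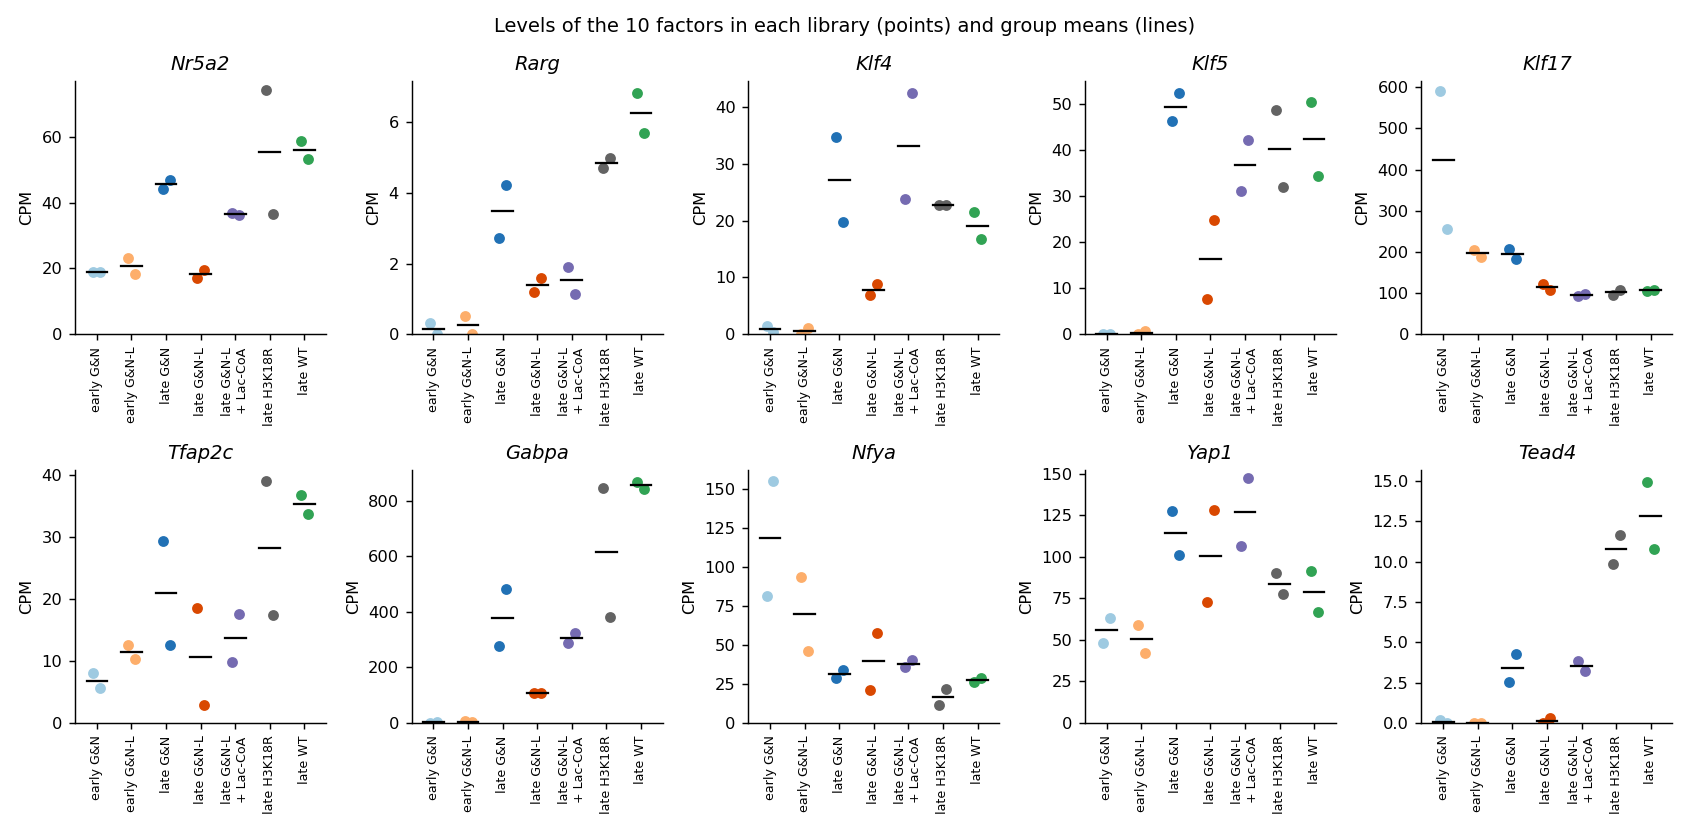
Level of each of the 10 factors in CPM (vertical axes, each from 0) in every library (points) of the 7 conditions, with lines at the means of 2 libraries. Klf17 and Nfya are highest in early G&N embryos, and the late G&N-L points of Gabpa (107 and 107 CPM), Nr5a2, Klf4 and Klf5 lie below those of late G&N and of G&N-L + Lac-CoA.

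Genes with the most similar pattern were sought among 9890 genes with a mean of at least 5 CPM, by Pearson r of log2 CPM over the 14 libraries. These points share a large stage difference, so r is given over the 10 late libraries as well, as a description only. Gabpa was closest to Obox3, an oocyte and 2-cell homeobox gene (r = 0.995, late 0.970), and Ppat, of purine synthesis (0.995, late 0.982). Klf5 was closest to the co-activator gene Cited1 (0.994, late 0.904), Rarg to Elovl6 (0.983, late 0.962), Tead4 to Ppp2r3a (0.980, late 0.962), Klf4 to Pramel11 (0.977, late 0.779) and Nr5a2 to AU022252 (0.970, late 0.948). Over the 14 libraries r was lower for the best matches of Klf17 (Pias1, 0.935, late 0.903) and Yap1 (Usp17ld, 0.926, late 0.818). The same held for Nfya (Zkscan16, 0.923, late 0.827) and Tfap2c (Krt28, 0.913, late 0.910). Over the late libraries each of these was above Klf4 with Pramel11.

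The partner subunits and pathways of these factors gave a mixed picture. The 4 partners of GABP and NF-Y (Gabpb1, Gabpb2, Nfyb and Nfyc) all had lower levels in lactate-deprived than in lactate-fed late embryos. Their median log2 fold change was -0.58, beside -0.02 for all genes. The criterion was met by 1, lower, against 7.63% of all genes that were lower at the criterion. This was Nfyb, the histone-fold subunit that pairs with Nfyc, at 105 and 190 CPM with and 49.6 and 51.4 CPM without lactate (-1.49 ± 0.320, adjusted p = 0.313, edgeR) and at 117 and 183 CPM with Lac-CoA (1.52 ± 0.277 against G&N-L, adjusted p = 0.294). Between the G&N stages Nfyb rose from 24.7 and 14.6 CPM (2.86 ± 0.423, adjusted p = 0.0170, edgeR), whereas Nfya fell.

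Among the relatives of Yap1 and Tead4, 5 of 8 co-activator and TEAD genes were tested in the late lactate comparison. Of these 5, 1 met the criterion, lower, against 7.63% of all genes. This was Wwtr1, the Yap1 paralogue also called TAZ. It was at 21.0 and 19.7 CPM with and 10.3 and 7.02 CPM without lactate (-1.18 ± 0.434, adjusted p = 0.369, edgeR). Of 18 tested genes of the Hippo kinase cascade and YAP regulators 14 were lower, with a median of -0.30 beside -0.02 for all genes. The criterion was met by 2, both lower, against 7.63% of all genes that were lower at the criterion. Nf2, the upstream regulator merlin, was at 38.1 and 36.5 CPM with and 10.4 and 14.8 CPM without (-1.52 ± 0.357, adjusted p = 0.321). Of 11 tested textbook targets of YAP and TEAD, RAR and NR5A2, 8 were higher and 3 lower, and 3 met the criterion, all higher, with a median of 0.68, beside 4.23% of all genes higher at the criterion. Among them was Ccn2, a target of YAP and TEAD, with the smallest p of this list (adjusted p = 0.332, edgeR, no standard error and no fold given). Dhrs3, a retinaldehyde reductase induced by retinoic acid, was another (0.88 ± 0.324, adjusted p = 0.369, edgeR).

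In the change of stage with lactate, 4 of 17 tested Kruppel-like and Sp paralogues rose, among them Sp3 (2.14 ± 0.356, adjusted p = 0.0222, edgeR) and Klf9 (7.63 ± 1.37, adjusted p = 0.0264), and none fell, beside 8.18% of all genes that rose and 5.47% that fell. In the retinoid list 1 of 15 rose, Cyp26a1, and 3 fell, Crabp2, a retinoic acid carrier (-5.41 ± 0.447, adjusted p = 0.00617), Aldh1a2, which makes retinoic acid (-2.51 ± 0.478, adjusted p = 0.0308), and Rdh11 (-1.68 ± 0.334, adjusted p = 0.0342), while Rarg was higher. Of 8 tested AP-2 relatives Cited1 rose, from 0.0196 and 0 CPM to 56.7 and 73.5 CPM (adjusted p = 0.00566, edgeR). None of 6 tested NR5A and orphan receptor relatives had an adjusted p below 0.05 in edgeR. At the criterion 1 of these 6 was higher and 2 were lower, against 34.4% of all genes in either direction. Of 8 tested textbook targets 1 rose and 1 fell. Cyp26a1, a retinoic acid-degrading enzyme induced by retinoic acid, went from no count in early G&N to 2.96 and 1.68 CPM in late G&N (adjusted p = 0.0484, edgeR), and Gata3, a TEAD4 target in trophectoderm, fell (-3.16 ± 0.387, adjusted p = 0.0117, edgeR). Oocyte markers fell in 10 of 18 and late activation markers rose in 5 of 12, while 5.47% of all genes fell and 8.18% rose. Minor-wave and 2-cell program markers rose in 14 of 22 and fell in 2.

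Beside the lower factors in late G&N-L embryos, 10 of the 12 late activation markers were lower than in G&N and 7 met the criterion, all lower, against 7.63% of all genes, with a median of -1.43. Their summed level was 1284 to 1743 CPM in G&N, 606 to 653 CPM in G&N-L and 1024 to 1033 CPM with Lac-CoA. Oocyte markers went the other way, with 13 of 18 higher and 2 higher at the criterion, against 4.23% of all genes, and summed to 27953 to 30191 CPM in G&N, 29682 to 34594 CPM in G&N-L and 22682 to 25693 CPM with Lac-CoA. Minor-wave and 2-cell program markers, 22 genes in the table, summed to 3291 to 3529 CPM in G&N, 3106 to 3796 CPM in G&N-L and 5142 to 5722 CPM with Lac-CoA. In the early libraries they summed to 380 to 623 CPM, below every late library. What part the age or progress of the embryos has in the levels of the 10 genes was not tested.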

How the data were processed

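The count table deposited by the authors holds raw counts of reads per gene for 14 libraries, with no column outside the labels (0) and no normalization. Per the labels and the study's methods, cDNA of 5 embryos was amplified, reads were checked with FastQC, trimmed with Trim Galore, aligned to mm39 with HISAT2 and counted with featureCounts; versions, annotation release, strand setting and the treatment of multimapping reads are not given in the sources used here. Shared reads of paralogues or opposite genes may therefore be split or lost. The methods name 3 replicates a group and 2 were analysed here. The labels do not say that libraries of a group came from separate cultures, so p-values measure the spread between these libraries, which may be technical. Libraries of a group differed beyond sampling noise (chi-square over its degrees of freedom, 51.9 to 216), so none was counted as a duplicate.

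The 4 libraries of a comparison, or the 8 of the interaction, entered 1 fit of edgeR 4.0.16, run with limma 3.58.1 under R 4.3.3: TMM, the default filter on low counts, glmQLFit and glmQLFTest, two-sided, with Benjamini-Hochberg adjustment over all genes tested. An exact permutation test of 2 against 2 cannot go below p = 0.333 and was not used. The criterion of an unadjusted p below 0.05 with a log2 fold change beyond 0.5 is a second, looser threshold, which the study's text does not state. Levels are CPM on TMM-scaled totals, per kb of merged exons where genes are compared; 56236 of 56923 gene IDs were found in GENCODE vM39. All 10 genes were described whatever their values; of the pathway lists, at most 3 genes with an adjusted p below 0.05, or else the gene with the smallest p, could be named, and genes with a group at 0 are given no fold. The members, lists and markers were chosen with earlier results of these data known. Alternatives were DESeq2 1.42.0, its size factors, library totals, no filter, a minimum of 10 counts per library, a joint fit of all 14 libraries, the replicate number as a block, and each library left out. The fits and the motif search were tested on simulated data with known answers. Library totals of 20350427 to 61275465 counts set the precision, as given with the results.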

Additional observations from a re-analysis of the deposited data

How the results depend on the processing

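Of 589 values of single genes under other settings, 558 kept their direction and their side of the criterion, 14 came to meet it, 9 left it and 8 changed sign. Without 1 library, 285 of 368 kept both, 14 came to meet it, 33 left it and 36 changed sign, and 12 more had a group without counts and no value. The count of the 10 genes with an adjusted p below 0.05 depended on the tool. With DESeq2 it was 3 for late lactate removal, 2 for Lac-CoA against G&N-L, 1 for Lac-CoA against G&N, 10 and 4 for the stages with and without lactate, and 3 for WT against G&N. With no filter it was 1 for late lactate removal, 2 for WT against G&N and 2 for the interaction, and with at least 10 counts in every library it was 1 for late lactate removal and 2 for WT against G&N. All 14 libraries in a fit gave 7 for the stages with lactate, and library totals 1 for the stages without. The criterion was met by 2 genes with no filter for early lactate removal. The order of the 7 conditions was unchanged for 6 of the 10 genes under library totals and for 6 under DESeq2 size factors. Over all genes the adjusted calls moved in the same way, for late lactate removal from 0 to 916 with DESeq2, 317 with no filter and 114 with at least 10 counts, for the interaction from 0 to 231 with DESeq2 and 361 with no filter, and with DESeq2 from 0 to 1183 and 471 for Lac-CoA against G&N-L and G&N, from 0 to 37 for early removal, from 1 to 118 for H3K18R, from 2654 to 5959 and 2203 to 5218 for the stages with and without lactate and from 877 to 4104 for WT against G&N. The causes were not tested.

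Signs turned for Nfya with Lac-CoA against G&N-L (0.0072 with library totals, 0.058 with the replicate block), for Nr5a2 in H3K18R (0.0011 with DESeq2 or its size factors, 0.0071 with library totals, 0.00074 with at least 10 counts), and, with library totals, for Nr5a2 and Tfap2c for the stages without lactate (0.14 and 0.22).

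Without 1 library the number of genes at the criterion ran from 2 to 5 for late lactate removal, from 0 to 1 for early removal and for H3K18R, and from 5 to 8 for the stages with lactate. The number with an adjusted p below 0.05 ran from 2 to 6 and from 0 to 3 for the stages with and without lactate and from 0 to 1 for WT against G&N. Log2 fold changes that turned without 1 library ranged as follows. For late lactate removal these were Nfya (-0.50 to 0.90) and Yap1 (-0.60 to 0.19). For early removal these were Klf4 (-1.23 to 0.90), Gabpa (-0.23 to 1.82), Yap1 (-0.31 to 0.28) and Rarg (-0.14 to 1.79). For Lac-CoA against G&N-L these were Tfap2c (-0.49 to 2.23), Nfya (-0.65 to 0.77), Rarg (-0.36 to 0.42) and Yap1 (-0.059 to 0.75). For Lac-CoA against G&N these were Klf4 (-0.13 to 0.83), Tfap2c (-1.05 to 0.20), Gabpa (-0.57 to 0.18), Yap1 (-0.023 to 0.45) and Tead4 (-0.18 to 0.54). For H3K18R these were Nr5a2 (-0.62 to 0.41), Klf5 (-0.41 to 0.25), Klf17 (-0.15 to 0.0082), Tfap2c (-1.03 to 0.15), Yap1 (-0.12 to 0.35) and Tead4 (-0.48 to 0.019). For the stages without lactate these were Tfap2c (-2.06 to 0.69). For the interaction these were Klf17 (-0.33 to 0.76) and Yap1 (-0.50 to 0.29).

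Replicate numbers were tested as a pairing. Deviations of same-numbered libraries correlated at -0.111 to 0.0103 over 9890 genes. With 2 libraries a group this cannot show whether same-numbered libraries shared a collection or preparation. With the replicate number as a block, 5 of the 10 genes met the criterion for late lactate removal, 4 for Lac-CoA against G&N-L, 7 for the stages with lactate and 3 for the interaction, and Klf17 lost its adjusted call for the stages without lactate (adjusted p = 0.0893, edgeR) while Klf5 gained one (adjusted p = 0.0296, edgeR). Of all genes, 1540 met the criterion for late lactate removal against 2311 without the block, 301 for early removal against 781, 1058 for Lac-CoA against G&N against 1669 and 618 for H3K18R against 1141.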
